A study of Mus musculus with 12 samples.

Results

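The 6 conventional actin genes of the mouse, Acta1, Actc1, Acta2, Actg2, Actb and Actg1, were followed across 4 groups of C2C12 libraries. They were taken by gene symbol from a table of 78275 gene IDs, and all 6 were among the 15030 genes that passed the filter on low counts. Acta1 and Actc1 passed it through the induced groups alone. C2C12, an established mouse myoblast line, forms multinucleated myotubes in low serum. Knockdown cells were transfected with siRNA to Zfp143, which encodes ZNF143, a zinc finger transcription factor, and control cells with a non-targeting siRNA. Both were then taken through 5 days of myogenic induction in medium with 1% horse serum, or harvested uninduced at 24 hours after transfection from medium with 10% fetal bovine serum. The 4 groups are induced knockdown, induced control, uninduced knockdown and uninduced control, with 3 libraries of polyadenylated RNA in each. All groups share 1 cell line and a transfection. Nothing in the labels says that libraries of a group came from separate experiments. P-values therefore measure the spread between these libraries, which may be technical.

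Actin monomers polymerise into the filaments that myosin pulls on in the sarcomere and that shape, move and divide every other cell. Vertebrates make them from 6 genes: Acta1 encodes the skeletal muscle form, Actc1 the cardiac form, Acta2 and Actg2 the vascular and enteric smooth muscle forms, and Actb and Actg1 the cytoplasmic beta and gamma forms found in nearly all cells. In developing skeletal muscle Actc1 and Acta2 are made early and Acta1 takes over later, while the cytoplasmic forms decline relative to the sarcomeric ones. Many actin promoters carry CArG boxes, the binding sequence of serum response factor (SRF), whose coactivators of the MRTF family are held back by unpolymerised actin.

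The proteins are near copies of each other. In mouse coding sequences of the GENCODE M21 annotation, Acta2 and Actg2 differ at 3 aligned residues, Acta1 and Actc1 at 4, and Actb and Actg1 at 4, gaps included. A muscle and a cytoplasmic actin differ at 22 to 26. Protein identity between any 2 of them runs between 93.1% and 99.2%, but nucleotide identity over the coding sequence only between 81.5% and 88.7%. The first 60 coding bases are shown because the N-terminus is the stretch by which actin isoforms are told apart. Capitals mark the codons between the start codon and the alanine, leucine and valine codons that all 6 share, 7 codons in Acta1, Actc1 and Acta2, 6 in Actg2 and 5 in the cytoplasmic forms, several of them for acidic residues.
Acta1: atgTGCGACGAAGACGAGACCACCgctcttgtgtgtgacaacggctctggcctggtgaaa
Actc1: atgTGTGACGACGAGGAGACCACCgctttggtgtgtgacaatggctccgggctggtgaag
Acta2: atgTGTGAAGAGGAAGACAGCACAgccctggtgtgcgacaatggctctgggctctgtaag
Actg2: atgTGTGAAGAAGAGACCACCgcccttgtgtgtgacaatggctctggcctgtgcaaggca
Actb: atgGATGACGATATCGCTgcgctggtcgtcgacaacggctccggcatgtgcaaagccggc
Actg1: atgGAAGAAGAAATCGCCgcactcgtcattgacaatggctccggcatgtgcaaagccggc
In GRCm38, the build of that annotation and not the GRCm39 build of the deposited values, the genes lie at chr8:123891769-123894751 (Acta1), chr2:114047282-114053548 (Actc1), chr19:34241090-34255590 (Acta2), chr6:83512905-83536265 (Actg2), chr5:142903115-142906754 (Actb) and chr11:120345690-120348542 (Actg1), all on the minus strand. Acta1 is overlapped there by Gm20388 and Actc1 by A530058N18Rik, both on the plus strand, and Actg1 by the small RNA genes Gm23419 and Mir6935. The library kit does not record strand, so reads from the shared bases cannot be assigned by strand.

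Reads that fit several actins bear on every share given here. Of all 31-base words of the longest coding transcript, 4.03% in Acta1, 0.832% in Actc1, 1.30% in Acta2, 0.767% in Actg2, 7.20% in Actb and 5.98% in Actg1 also occur in a transcript of another actin. The cytoplasmic pair shared the most. How the quantification split reads of shared sequence was not tested. Sums over the family are given beside the shares for that reason.

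RefSeq promoter sequences (GRCm38.p6) matched 4 of the 6 symbols, Acta1, Actc1, Acta2 and Actg1. The 250 bases before each start were searched on both strands for the CArG box, which is CC, then 6 letters that are each A or T, then GG. An exact box occurred in 1.47% of 32841 RefSeq promoter windows of that length. The Acta1 window held 1 exact box beginning 73 bases before the start, Actc1 held 1 at 47 and Actg1 held 1 at 90, while the Acta2 window held none. Allowing 1 other letter among the middle 6, 8.59% of all windows had a match, and Acta1 had 3, Actc1 4, Acta2 2 and Actg1 1. The 2 in Acta2, at 84 and 34 bases before the RefSeq start, read CCCTATATGG and CCTTGTTTGG, and lie in bases that GENCODE places in an Acta2 exon. The windows of the other 3 genes are printed as far as they lie outside exons of the gene itself, because these members rose together on induction. The Actg1 window overlaps an exon of 0610009L18Rik by 68 bases. Capitals mark boxes with at most 1 other letter.
Acta1, chr8:123894776-123895025, minus strand: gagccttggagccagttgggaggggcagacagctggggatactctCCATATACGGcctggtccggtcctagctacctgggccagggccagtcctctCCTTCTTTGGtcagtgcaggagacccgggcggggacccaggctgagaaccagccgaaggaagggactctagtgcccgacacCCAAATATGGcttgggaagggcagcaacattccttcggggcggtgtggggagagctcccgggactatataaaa
Actc1, chr2:114052888-114053125, minus strand: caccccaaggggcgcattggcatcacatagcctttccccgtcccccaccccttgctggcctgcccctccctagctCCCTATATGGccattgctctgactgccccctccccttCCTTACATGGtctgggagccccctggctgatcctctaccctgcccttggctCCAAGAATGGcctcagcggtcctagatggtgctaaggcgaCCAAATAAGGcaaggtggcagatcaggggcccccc
Actg1, chr11:120348543-120348745, minus strand: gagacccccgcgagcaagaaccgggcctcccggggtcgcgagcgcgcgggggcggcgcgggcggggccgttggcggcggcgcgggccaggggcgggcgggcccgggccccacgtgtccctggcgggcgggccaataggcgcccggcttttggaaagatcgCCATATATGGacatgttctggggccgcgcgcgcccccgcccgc
The E-box CANNTG, the binding sequence of myogenic regulators such as MyoD, occurred in 66.2% of all windows and was found 2 times in the Acta1 window, 3 times in Acta2, 1 time in Actg1 and not in Actc1. A match describes letters in a window and not a bound site.

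Total estimated counts ranged from 13520906 to 19068323 per library. Zfp143, the targeted gene, had 14.7, 16.8 and 19.7 CPM (counts per 1000000 counts of the library, with TMM scaling) in induced knockdown libraries, against 19.7, 19.3 and 19.2 CPM in induced control libraries. It had 12.2, 11.9 and 10.1 CPM in uninduced knockdown libraries, against 23.2, 27.8 and 39.8 CPM in uninduced control libraries. The target was lower in uninduced knockdown cells (log2 fold change -1.41 ± 0.18 SE, edgeR quasi-likelihood test, adjusted p = 6.12e-05). At 5 days of induction the log2 fold change was -0.18 (adjusted p = 0.646; the 95% confidence interval ran from -0.57 to 0.20). A pair of libraries stood apart: uninduced control replicate 3, with 6.02% of its counts from mitochondrially encoded genes against 2.63% and 2.90% in its group, and induced knockdown replicate 1, with 13520906 counts and 1.95%.

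The make-up of the actin pool was not the same in the 4 groups. Shares are each gene's part of the summed TPM (transcripts per 1000000 transcripts) of the 6 genes, a scale that takes transcript length into account. Acta1 made up 25.3% ± 0.79 of actin TPM in induced knockdown cells, 48.1% ± 0.83 in induced control cells, 0.032% ± 0.026 in uninduced knockdown cells and 0.0084% ± 0.0074 in uninduced control cells (SD, n = 3 libraries each). Actc1 made up 1.44% ± 0.22 in induced knockdown cells, 5.03% ± 0.41 in induced control cells, and at most 0.00575% in any uninduced library. The vascular smooth muscle form Acta2 held 18.1% ± 0.80 in induced knockdown cells and 18.8% ± 0.89 in induced control cells, against 1.44% ± 0.12 in uninduced knockdown cells and 0.545% ± 0.023 in uninduced control cells. Actg2 never passed 0.257% of the pool in any library. Actb held 21.6% ± 0.86, 10.8% ± 0.67, 46.5% ± 1.32 and 57.7% ± 0.90 in the same order of groups, and Actg1 33.2% ± 1.19, 17.2% ± 1.37, 51.9% ± 1.26 and 41.8% ± 0.88.

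The leading gene of the pool was not the same in all groups. Acta1 led in induced control cells, Actg1 in induced knockdown and uninduced knockdown cells, and Actb in uninduced control cells. The standard deviation between libraries of a group was at most 1.37 percentage points for any share, and the same gene led in all 3 libraries of each group. Taken as 1 class, the 4 muscle forms made up 45.2% ± 1.35 of actin TPM in induced knockdown cells and 72.1% ± 2.03 in induced control cells. They made up 1.59% ± 0.15 in uninduced knockdown cells and 0.591% ± 0.043 in uninduced control cells.

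**Figure D1:**
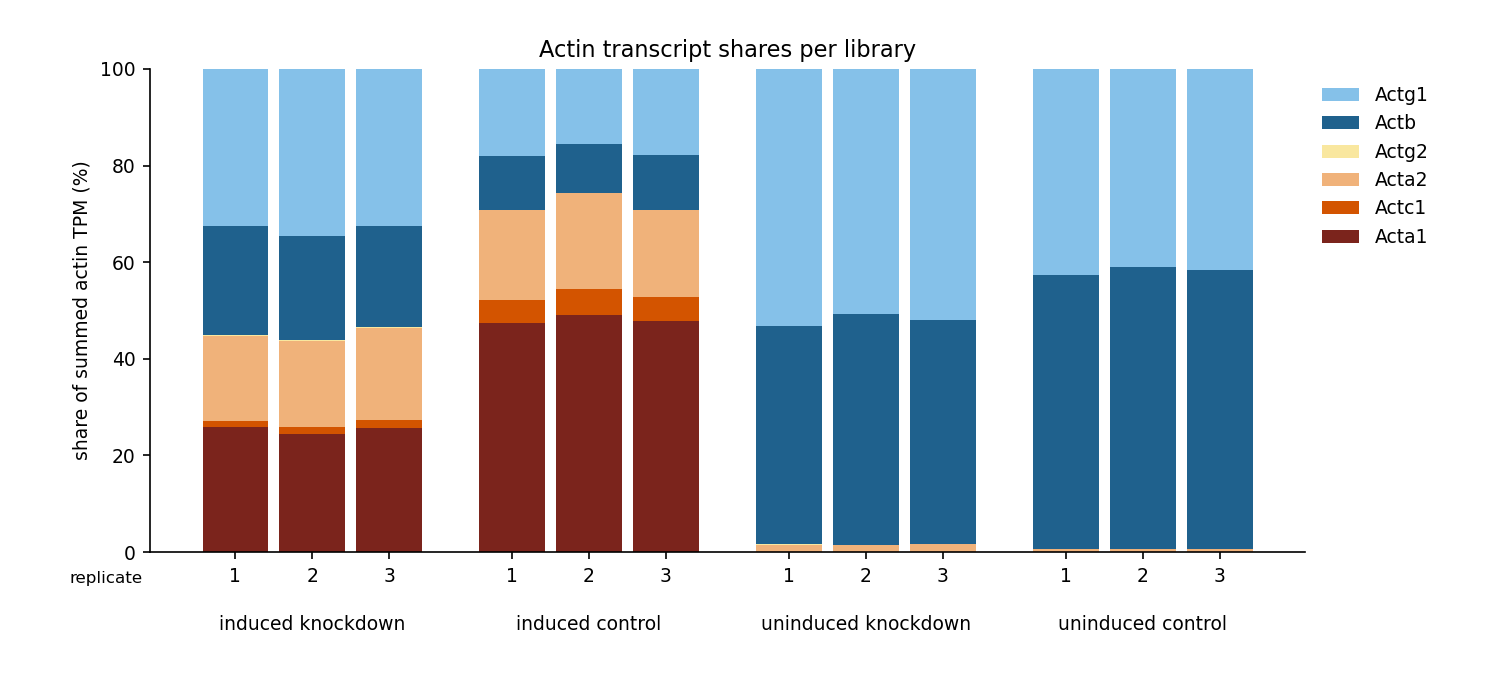
Stacked bars of the share of each actin gene in the summed TPM of the 6 genes, in percent, for each of the 12 libraries grouped as induced knockdown, induced control, uninduced knockdown and uninduced control. Acta1 holds between 24.4% and 25.9% in induced knockdown libraries and between 47.4% and 49.02% in induced control libraries, and uninduced libraries are almost wholly Actb and Actg1.

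Shares were compared by an exact permutation test in which libraries were exchanged between siRNAs within each state, 400 arrangements in all, with p-values adjusted over the 18 tests of shares and sums; the smallest adjusted p seen was 0.00818. A test of 3 against 3 libraries within 1 state cannot go below 0.10, so differences within a state are descriptions. The siRNA difference in the share of Actg1 averaged 13.1 percentage points over the states, with 16.1 points in induced and 10.2 points in uninduced cells (exact permutation test, two-sided, adjusted p = 0.00818). The Actg2 share was also higher in knockdown cells, by 0.106 points on average (exact permutation test, adjusted p = 0.00818). The Actb share differed by 10.8 points in induced and by -11.2 points in uninduced cells (knockdown minus control), and its average did not pass (-0.183, exact permutation test, adjusted p = 0.885). The Acta1 share differed by -22.8 points in induced and by 0.0238 points in uninduced cells, an average of -11.4 points (exact permutation test, adjusted p = 0.129). Uninduced Acta1 shares were near 0, so this average rests almost wholly on 3 against 3 induced libraries. Its unadjusted p was 0.1 (exact permutation test), the floor of such a test, so it cannot decide on the induced difference. For Actc1 the average was -1.80 points (exact permutation test, adjusted p = 0.0692), and it passed when uninduced control replicate 1 or 2 was left out (adjusted p = 0.0277 and 0.0300, exact permutation test). Its uninduced part, -0.00192 points, came from 1 count in uninduced control replicate 3. These p-values turn on that count, so they cannot decide on the induced difference. Acta2 averaged 0.116 points (exact permutation test, adjusted p = 0.863). Induction shifted every share, up for the 4 muscle forms and down for Actb (-35.9 points on average) and Actg1 (-21.6 points), each with an adjusted p of 0.00818 in the exact permutation test. Shares of 1 pool are not independent, since a rise in some has to lower others. The summed TPM of Actb and Actg1 rose with induction, by 1.35 on the log2 scale. In induced cells the Actg1 share gain stands beside the Acta1 loss, and the Actg1 level did not pass (edgeR adjusted p = 0.31).

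Induction raised the family's total. All 6 genes together made up 0.773% ± 0.094 of all TPM in induced knockdown cells, 1.15% ± 0.049 in induced control cells, 0.160% ± 0.0073 in uninduced knockdown cells and 0.139% in uninduced control cells, where the 3 libraries ran from 0.0859% to 0.177%. On the log2 TPM scale the sum was 2.27 higher in induced than in uninduced knockdown cells and 3.11 higher in induced than in uninduced control cells (mean 2.69, exact permutation test, adjusted p = 0.00818). The muscle forms rose by 8.57 on average and the cytoplasmic pair by 1.35 (exact permutation test, adjusted p = 0.00818 for each). Between siRNAs the sum of the muscle forms differed by -1.25 in induced and by 1.69 in uninduced cells (knockdown minus control, log2 scale), and the averages of 0.222 for the muscle forms and -0.152 for all 6 did not pass (exact permutation test, adjusted p = 0.754 and 0.63). Without uninduced control replicate 3 the average over all 6 was -0.309 (exact permutation test, adjusted p = 0.0525) and that of the muscle forms 0.0348 (adjusted p = 0.98, exact permutation test). Without both libraries that stood apart the average over all 6 was -0.358 (exact permutation test, adjusted p = 0.06) and that of the muscle forms -0.0123 (adjusted p = 0.98, exact permutation test). The cytoplasmic pair averaged 0.328 higher in knockdown cells (exact permutation test, adjusted p = 0.0525). Without uninduced control replicate 1 that difference was 0.433 and passed (exact permutation test, adjusted p = 0.00818), and without uninduced control replicate 3 it was 0.172 (exact permutation test, adjusted p = 0.12). Without both libraries that stood apart it was 0.121 (exact permutation test, adjusted p = 0.192). In bulk RNA, fewer cells of a type and less RNA per cell cannot be told apart, which holds for every level in these libraries.

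Acta1, the skeletal form that builds the adult thin filament, was nearly absent before induction and the most abundant of the 6 after it in control cells. Its TPM was 2284, 1741 and 1858 in induced knockdown libraries, against 5344, 5895 and 5318 in induced control libraries. Uninduced knockdown libraries had 0.254, 0.288 and 1.04 TPM, and uninduced control libraries 0.240, 0.179 and 0. The induced groups do not overlap with each other or with the uninduced ones. The siRNA lowered Acta1 in induced cells to 0.341 times the control level (log2 fold change -1.55 ± 0.24 SE, 95% confidence interval -2.05 to -1.05, edgeR adjusted p = 0.000492).

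In uninduced cells Acta1 rests on a handful of reads. The 3 knockdown libraries held 5, 5 and 20 counts and the control libraries 4, 3 and 0. The fit gave a log2 fold change of 2.04 ± 0.82 SE with an edgeR adjusted p of 0.0419, close to the threshold of 0.05. Without uninduced knockdown replicate 3, the library with 20 counts, it was 1.07 (edgeR adjusted p = 0.311), and without uninduced control replicate 3 it was 1.56 (edgeR adjusted p = 0.0955). Leaving out uninduced control replicate 2, or any 1 of the induced control libraries, also ended the call, with edgeR adjusted p-values between 0.0504 and 0.0835. So did limma-voom (adjusted p = 0.0744), a replicate block (edgeR adjusted p = 0.0529) and leaving out both libraries that stood apart (edgeR adjusted p = 0.074). Induction multiplied the summed, depth-scaled Acta1 count by 2448 in knockdown cells (95% counting interval 1715 to 3629) and by 31150 in control cells (15120 to 77470). The denominators are 30 and 7 counts, and the intervals cover counting error only. Without uninduced knockdown replicate 3 the fitted log2 rise in knockdown cells was 12.24, against 11.27 with it.

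Actc1, the cardiac form that embryonic and regenerating skeletal muscle also makes, was the member that differed most between siRNAs in induced cells. It had 109, 99.2 and 121 TPM in induced knockdown libraries, against 535, 661 and 539 TPM in induced control libraries. The groups do not overlap. The fold change was 0.176 (log2 -2.51 ± 0.15 SE, 95% confidence interval -2.83 to -2.19, edgeR adjusted p = 8.82e-07). That interval does not overlap the one of Acta1, although the difference between the genes was not tested. In uninduced cells Actc1 had no count in any knockdown library and 1 count in 1 of the 3 control libraries, uninduced control replicate 3. A count of 0 allows up to 3 counts per library, so no fold between siRNAs is given there. Against that floor, induction raised Actc1 at least 426.5-fold in knockdown cells. In control cells the ratio of 23939 to 1 summed counts, scaled for depth, was 21680 (95% counting interval 3891 to 856300).

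Acta2, the vascular smooth muscle form and a marker of myofibroblasts, held the second largest share among the muscle forms in induced cells and the largest in uninduced cells. It had 1542, 1274 and 1378 TPM in induced knockdown libraries, against 2099, 2377 and 2000 TPM in induced control libraries. Uninduced knockdown libraries had 21.9, 20.9 and 26.4 TPM, and uninduced control libraries 9.86, 8.54 and 4.45 TPM. Neither pair of groups overlaps, and the order of the siRNAs is opposite in the 2 states. Acta2 was lower in induced knockdown cells (log2 fold change -0.76 ± 0.15 SE, edgeR adjusted p = 0.0037) and higher in uninduced knockdown cells (1.72 ± 0.16 SE, edgeR adjusted p = 2.86e-06). Without uninduced control replicate 3 the uninduced difference was 1.61 (edgeR adjusted p = 1.22e-06). Induction raised it 39.0-fold in knockdown cells (log2 5.29 ± 0.15 SE, edgeR adjusted p = 5.05e-12) and 217-fold in control cells (7.76 ± 0.16 SE, edgeR adjusted p = 2.93e-13).

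Actg2, the enteric smooth muscle form, was the least abundant member in induced cells. Its levels were 21.5, 18.0 and 18.6 TPM in induced knockdown libraries and 14.6, 14.4 and 11.7 TPM in induced control libraries. Uninduced knockdown libraries had 2.41, 1.18 and 1.92 TPM, and uninduced control libraries 0.887, 0.610 and 0.154 TPM. It was the 1 muscle form whose induced knockdown libraries all lay above the induced control libraries, but that difference did not pass the test (log2 fold change 0.38, 95% confidence interval -0.12 to 0.89, edgeR adjusted p = 0.418). In uninduced cells the rise in knockdown cells passed (1.90 ± 0.39 SE, edgeR adjusted p = 0.00132), on summed counts of 94 in knockdown and 25 in control libraries. Induction raised Actg2 6.76-fold in knockdown cells and 19.3-fold in control cells (edgeR adjusted p = 4.61e-07 and 2.37e-08).

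Actb, the beta cytoplasmic form and a common reference gene for normalising measurements, changed less with induction than the other 5. It had 1986, 1525 and 1509 TPM in induced knockdown libraries, against 1250, 1205 and 1250 TPM in induced control libraries. Uninduced knockdown libraries had 713, 737 and 778 TPM, and uninduced control libraries 1005, 889 and 498 TPM. The uninduced groups overlap in range, since control replicate 3 lies below and the other control libraries above every knockdown library. After scaling between libraries the siRNA difference in uninduced cells was 0.02 on the log2 scale (95% confidence interval -0.28 to 0.32, edgeR adjusted p = 0.94); it was -0.06 without uninduced control replicate 3. In induced cells it was 0.33 (95% confidence interval 0.03 to 0.63, edgeR adjusted p = 0.187). Without uninduced control replicate 3 the induced difference was 0.34 and passed (edgeR adjusted p = 0.0429), although that library is not in the groups compared. Induction raised Actb 1.48-fold in knockdown cells (log2 0.57 ± 0.14 SE, edgeR adjusted p = 0.00247). In control cells it was 0.25 higher (95% confidence interval -0.05 to 0.55, edgeR adjusted p = 0.128). With scaling to library size alone the control value was 0.42 and passed (edgeR adjusted p = 0.0323), in a fit whose median over all tested genes was 0.208, against 0.03 in the main one.

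Actg1, the gamma cytoplasmic form, had 2870, 2466 and 2356 TPM in induced knockdown libraries, against 2030, 1873 and 1984 TPM in induced control libraries. Uninduced knockdown libraries had 838, 780 and 872 TPM, and uninduced control libraries 758, 624 and 357 TPM. Knockdown libraries lie above control libraries in both states with no overlap on this scale. The scaled difference passed the test in uninduced cells (log2 fold change 0.64 ± 0.15 SE, edgeR adjusted p = 0.00448; 0.54 and 0.00294 without uninduced control replicate 3). It did not in induced cells (0.28, 95% confidence interval -0.03 to 0.60, edgeR adjusted p = 0.31). Induction raised Actg1 2.01-fold in knockdown cells and 2.57-fold in control cells (edgeR adjusted p = 3e-05 and 1.38e-06).

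**Figure D2:**
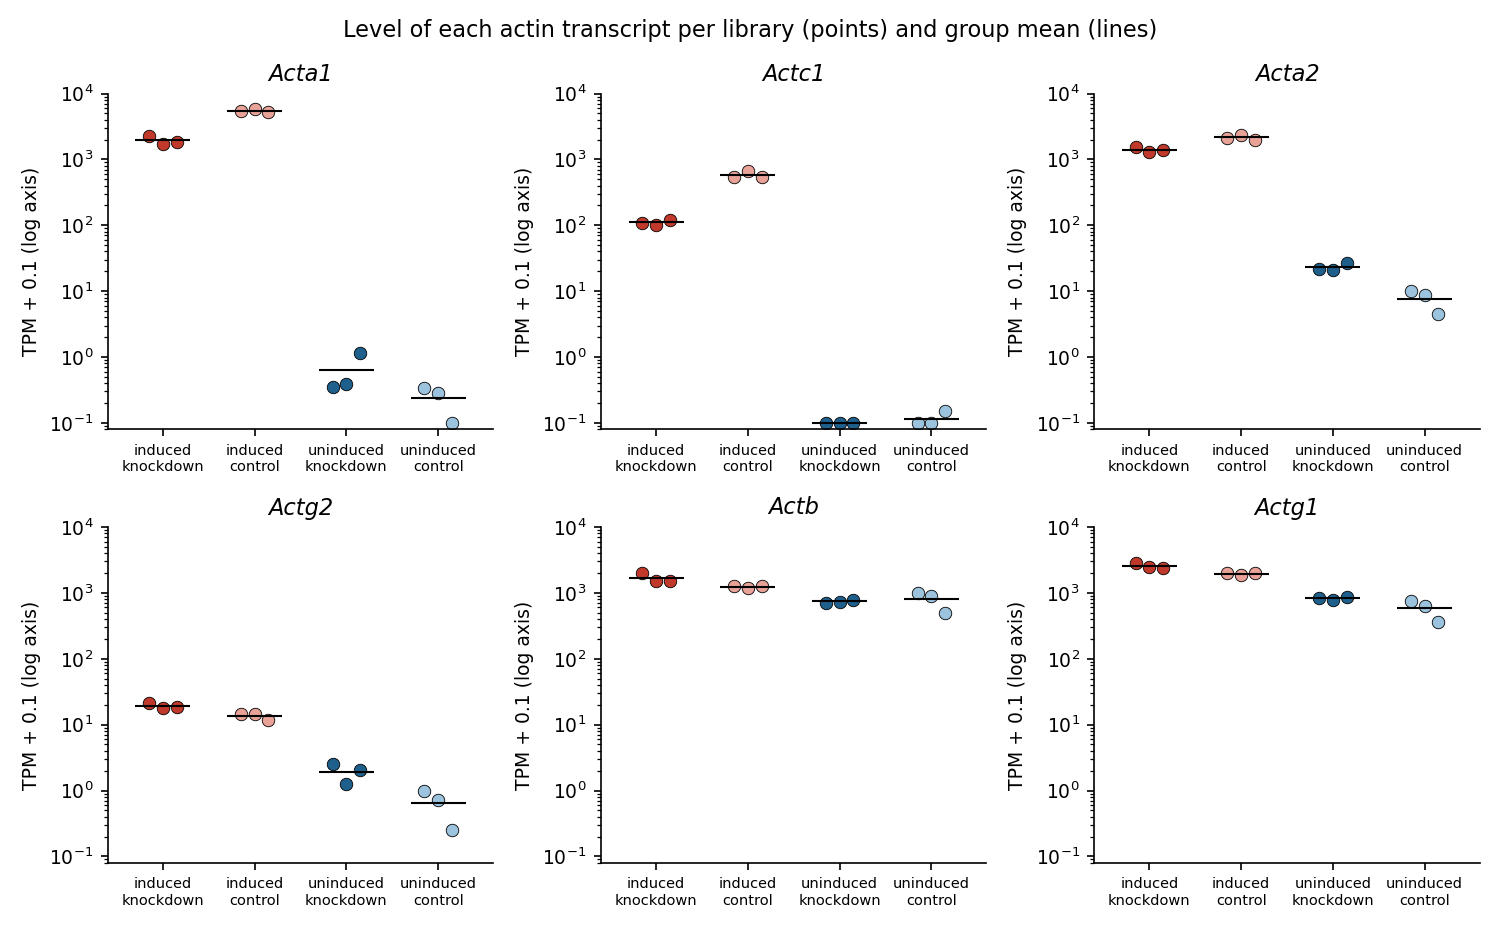
TPM of each actin gene plus 0.1, on a log axis, in each library (points) with the group mean (lines), for induced knockdown, induced control, uninduced knockdown and uninduced control cells. Acta1 and Actc1 lie near 0 TPM in uninduced libraries, and Acta2 libraries of knockdown cells lie below those of control cells after induction and above them before it.

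By counts over the family, 4 of the 6 genes were higher and 0 lower in uninduced knockdown cells, where 15.4% of the 15030 tested genes were higher and 17.1% lower by the same test (edgeR, adjusted p under 0.05). No member was lower there at an unadjusted p under 0.05 or by DESeq2 or limma-voom, which called 4 and 3 higher. Without both libraries that stood apart 3 members were higher, in a fit that called 22.8% of its 15415 tested genes higher and 23.4% lower in uninduced knockdown cells, and 6.16% higher and 10.2% lower in induced knockdown cells. In induced knockdown cells 3 were lower and 0 higher, against 5.77% of tested genes lower and 3.73% higher. By edgeR Actb was higher at an unadjusted p of 0.0316, and DESeq2 and limma-voom called 0 higher. Induction raised 6 of 6 in knockdown cells, where 36% of tested genes were higher and 30.1% lower. It raised 5 of 6 in control cells, all but Actb, where 33.2% were higher and 30.9% lower. Acta1 and Actc1 entered the fit through their induced levels, so the filter fixed their direction with induction.

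The siRNA difference was not the same in the 2 states for 3 of the 4 muscle forms. The interaction, which subtracts the siRNA's log2 fold change in uninduced cells from that in induced cells, was lower than 0 for Acta1, Acta2 and Actg2. It was called in the positive direction for 10.6% and in the negative direction for 11.8% of tested genes. For Acta2 it was -2.48 ± 0.22 SE (edgeR adjusted p = 2.84e-06), and without uninduced control replicate 3 it was -2.36. For Acta1 it was -3.59 ± 0.85 SE (edgeR adjusted p = 0.00319), with the handful of uninduced counts as its base, and -2.62 without uninduced knockdown replicate 3. For Actg2 it was -1.51 ± 0.46 SE (edgeR adjusted p = 0.0227). The Actg2 call was lost when uninduced control replicate 2, uninduced knockdown replicate 1 or 3, or induced control replicate 1 or 2 was left out, with edgeR adjusted p-values between 0.0518 and 0.077. None is given for Actc1, which had 1 count in all uninduced libraries. The cytoplasmic forms did not pass, with 0.31 for Actb (95% confidence interval -0.11 to 0.74, edgeR adjusted p = 0.282) and -0.35 for Actg1 (-0.80 to 0.09, edgeR adjusted p = 0.247).

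**Figure D3:**
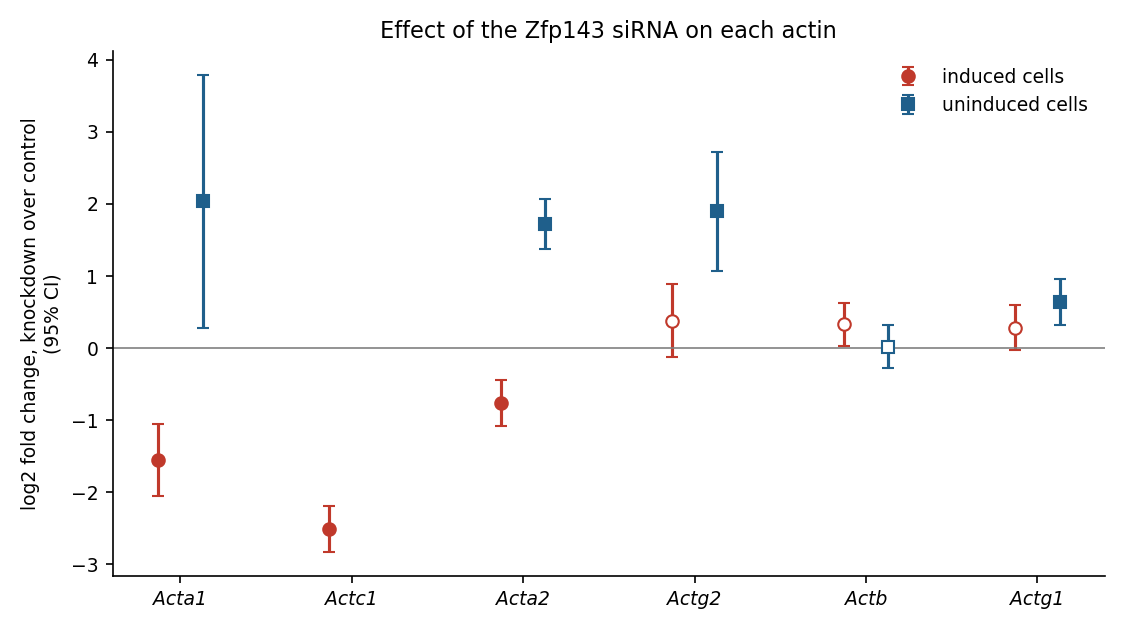
Log2 fold change of knockdown over control for each actin with its 95% confidence interval, in induced cells (circles) and uninduced cells (squares); filled symbols have an edgeR adjusted p under 0.05. Acta2 is at -0.76 in induced and 1.72 in uninduced cells, and Actc1 in uninduced cells is not drawn because it had 1 count in all 6 libraries.

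Within each class the balance between forms also differed. These ratios were added after the values had been seen and are descriptions without a test. Acta1 had 1.40 ± 0.072 times the TPM of Acta2 in induced knockdown cells and 2.56 ± 0.091 times in induced control cells. Within the 4 muscle forms, Acta1 held 56.1% ± 1.42 in induced knockdown cells and 66.8% ± 0.85 in induced control cells, Actc1 3.18% ± 0.42 and 6.98% ± 0.36, and Acta2 40.1% ± 1.03 and 26.1% ± 0.59 in the same order. In uninduced cells Acta2 was most of the class, with 90.8% ± 2.28 in knockdown cells and 92.3% ± 3.02 in control cells. The ratio of Actb to Actg1 was 0.650 ± 0.038 in induced knockdown cells and 0.630 ± 0.014 in induced control cells, where the libraries overlap. It was 0.896 ± 0.047 in uninduced knockdown cells and 1.38 ± 0.050 in uninduced control cells, where they do not. Uninduced control replicate 3, low in both genes, had a ratio of 1.39, between those of the other 2 libraries of its group.

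**Figure D4:**
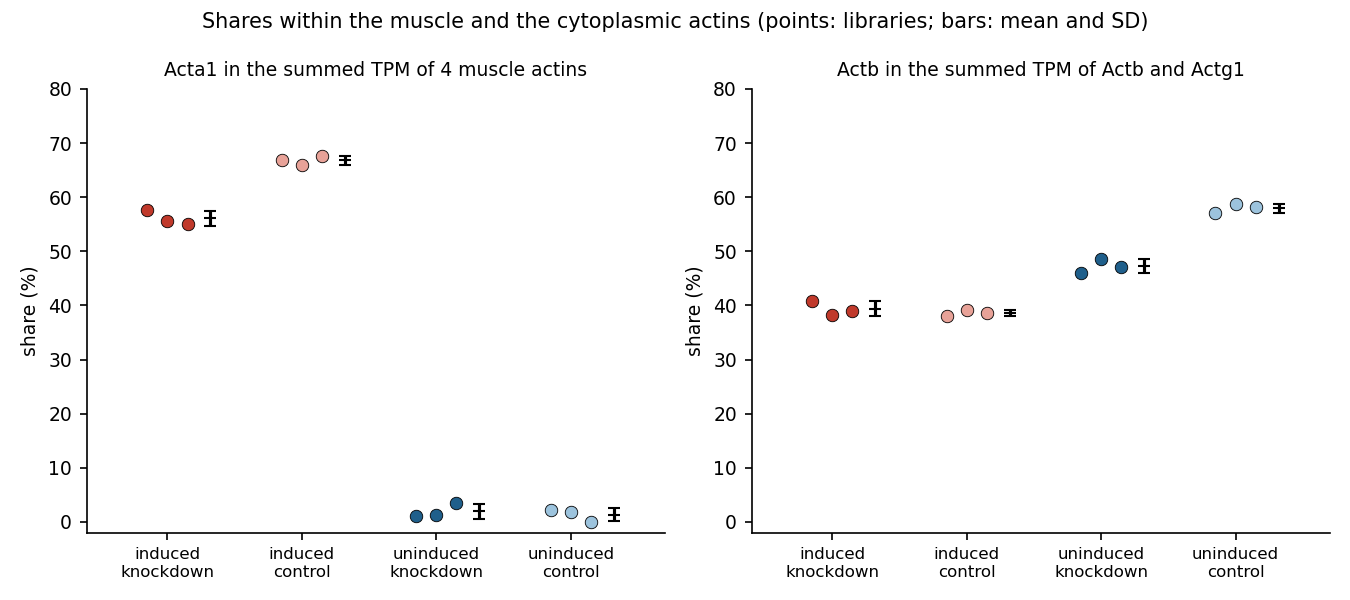
Share in percent of Acta1 in the summed TPM of the 4 muscle actins (left) and of Actb in the summed TPM of Actb and Actg1 (right), per library (points) with mean and SD (bars), in the 4 groups. The Actb share is 39.4% in induced knockdown, 38.6% in induced control, 47.2% in uninduced knockdown and 58.0% in uninduced control cells.

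Candidates for a similar pattern were 9892 tested genes with a symbol and at least 10 CPM in their highest group. Symbols that start with Gm and a digit or end in Rik or -ps, with or without a number, were left out. For each actin the 3 candidates of most similar pattern were taken by the smallest root mean square difference of centred log2 CPM over the 12 libraries. For Acta1 they were Myh3 (difference 0.673), Mybph (0.995) and Myh1 (1.05), which encode embryonic myosin heavy chain, a myosin-binding protein and an adult fast myosin heavy chain. For Actc1 they were Tnnc2 (0.367), Myl1 (0.478) and Mylpf (0.507), a fast troponin and fast myosin light chains. Tnnc2 averaged 94.9 CPM in induced knockdown cells and 422 CPM in induced control cells. The closest to Acta2 were Isg15 (0.312), Rtp4 (0.322) and Hsd11b1 (0.357), of which Isg15 and Rtp4 are known as interferon-induced genes. Isg15 averaged 317 CPM in induced knockdown, 440 CPM in induced control, 7.54 CPM in uninduced knockdown and 1.98 CPM in uninduced control cells. For Actg2 they were Col5a3 (0.316), Tmem119 (0.332) and Aoc3 (0.350), for Actb S1pr2 (0.077), Fgd3 (0.0835) and Dip2a (0.090), and for Actg1 Arhgef25 (0.110), Tns3 (0.111) and St3gal2 (0.117). The differences are smaller for genes that moved less, so they do not rank the members against each other.

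Genes for the proteins that cap actin filaments and set their length were lower in induced knockdown cells in many cases. Of 13 tested genes of this list, 7 were lower and 0 higher in induced knockdown than in induced control cells (edgeR). That is 53.8% of the list lower, against 5.77% of all tested genes. Without both libraries that stood apart 7 were lower and 1 higher, where 10.2% of all tested genes were lower and 6.16% higher. The median log2 fold change with all libraries was -1.01 against -0.025 over all tested genes. Lmod3, the leiomodin that nucleates thin filaments, averaged 35.5 CPM in induced knockdown and 130 CPM in induced control cells (-1.87 ± 0.16 SE, edgeR adjusted p = 3.34e-06). Tmod1, which caps the pointed end, averaged 20.5 CPM and 56.5 CPM in the same groups (-1.46 ± 0.13 SE, edgeR adjusted p = 6.29e-06). Of the 13, induction raised 8 and lowered 2 in knockdown cells, against 36% and 30.1% of all tested genes. It raised 9 and lowered 3 in control cells, against 33.2% and 30.9%. Tmod3, the tropomodulin of non-muscle cells, was among those that fell (log2 fold change -1.01 in knockdown and -1.50 in control cells, edgeR adjusted p = 0.000322 and 8.08e-06). In uninduced knockdown cells Lmod1 was higher (2.14, edgeR adjusted p = 0.0124), at 0.949 CPM against 0.207 CPM in control cells. At that level few reads carry it, and limma-voom called 0 of the list higher and 1 lower. Nrap (-1.81, edgeR adjusted p = 5.04e-06) and Tmod1 (-0.53, edgeR adjusted p = 0.0189) were lower. The edgeR shares, 7.69% higher and 15.4% lower, are not above the 15.4% and 17.1% of all tested genes.

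Tropomyosins, which lie along the filament and regulate myosin access, were lower in induced knockdown cells in 3 of 4 cases (edgeR). Over all tested genes 5.77% were lower and 3.73% higher there. Tpm2 averaged 430 CPM in induced knockdown and 1017 CPM in induced control cells (log2 fold change -1.24 ± 0.12 SE, edgeR adjusted p = 1.22e-05), and Tpm1 930 CPM and 1696 CPM (-0.87 ± 0.13 SE, edgeR adjusted p = 0.000387). Before induction Tpm1 was higher in knockdown cells (0.53, edgeR adjusted p = 0.00605), so it shares with Acta2 a sign that turns between the states; its interaction was -1.40 (edgeR adjusted p = 9.16e-05).

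Among 11 tested crosslinkers, 1 was higher and 3 lower in induced knockdown cells, and 3 were higher and 2 lower in uninduced knockdown cells (edgeR). Over all tested genes 3.73% were higher and 5.77% lower in induced and 15.4% higher and 17.1% lower in uninduced knockdown cells, so the uninduced count of lower genes, 18.2% of the list, is near that of all genes. With both libraries that stood apart left out, 3 were higher and 4 lower in induced knockdown cells, against 6.16% and 10.2% of all tested genes. In uninduced knockdown cells 4 were then higher and 3 lower, against 22.8% and 23.4%. Actn2, the sarcomeric alpha-actinin and 1 of the 3 lower in induced knockdown cells, averaged 0.1995 CPM there and 8.07 CPM in induced control cells. It passed the filter on low counts through induced control cells alone. The filter thus fixed its direction, and its test cannot decide on the difference. Xirp1, an actin-binding repeat protein of myofibrils under repair, averaged 41.2 CPM and 103 CPM in these groups (-1.32, edgeR adjusted p = 0.000196), while Fscn1, the bundling protein of filopodia, averaged 385 CPM and 250 CPM (0.62, edgeR adjusted p = 0.0458). Before induction Flnc, the muscle filamin, averaged 320 CPM in knockdown and 956 CPM in control cells (-1.58 ± 0.21 SE, edgeR adjusted p = 8.33e-05), and Actn3 averaged 7.65 CPM and 3.45 CPM (1.14, edgeR adjusted p = 0.000758).

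Genes for filament nucleation included several that were lower in uninduced knockdown cells. Of 15 tested formins and related nucleators, 7 were lower in uninduced knockdown cells (edgeR; 8 without the libraries that stood apart), or 46.7% of the list against 17.1% of all tested genes, with a median of -0.45 against -0.042 over all tested genes. Cobl averaged 13.8 CPM in uninduced knockdown and 30.1 CPM in uninduced control cells (log2 fold change -1.12, edgeR adjusted p = 8.98e-05), and Daam1 28.6 CPM and 47.4 CPM (-0.73, edgeR adjusted p = 0.000952). In induced knockdown cells edgeR called 1 of the 15 higher and 0 lower, against 3.73% and 5.77% of all tested genes. It was Diaph3, at 32.2 CPM in knockdown and 14.9 CPM in control cells (1.11 ± 0.16 SE, edgeR adjusted p = 0.000224). DESeq2 and limma-voom each called 1 higher and 2 lower there, and 3 were higher and 3 lower at an unadjusted p under 0.05. Without both libraries that stood apart 1 was higher and 3 lower, against 6.16% and 10.2% of all tested genes. Of 14 tested genes of the Arp2/3 complex and its activators, 3 were lower in uninduced knockdown cells, among them Actr3b (-1.90, edgeR adjusted p = 0.000509) and Wasf1 (-0.88, edgeR adjusted p = 0.000597). That is 21.4% of the list, near the 17.1% of all tested genes that were lower. Without both libraries that stood apart 4 of the list were higher and 3 lower in uninduced knockdown cells, against 22.8% and 23.4% of all tested genes. In induced knockdown cells edgeR called 0 of the 14, as did DESeq2 and limma-voom, and 1 had an unadjusted p under 0.05. Over all tested genes 3.73% were higher and 5.77% lower there. In the fit without both libraries that stood apart 1 was higher there, against 6.16% of all tested genes.

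Of 17 tested genes for monomer binding and filament turnover, 3 were higher in uninduced knockdown cells and 2 lower in induced knockdown cells (edgeR). The share higher in uninduced cells, 17.6%, is near the 15.4% of all tested genes, and 11.8% of the list was lower in induced cells against 5.77% of all. Without the libraries that stood apart 10 were higher and 1 lower in uninduced knockdown cells, where 22.8% of all tested genes were higher. The uninduced count is thus not near that of all genes in that fit. In induced knockdown cells 4 were lower, against 10.2% of all tested genes. Tmsb10, a beta-thymosin that binds monomers, averaged 835 CPM in uninduced knockdown and 523 CPM in uninduced control cells (log2 fold change 0.68, edgeR adjusted p = 0.00462), and Wdr1, a partner of cofilin, 192 CPM and 131 CPM (0.55, edgeR adjusted p = 0.00162). The 2 lower in induced knockdown cells were Cap2 (-2.79, edgeR adjusted p = 0.00017) and Coro6 (-1.12, edgeR adjusted p = 0.00054). With induction Cfl1, the cofilin of non-muscle cells, fell by 0.94 in control cells (edgeR adjusted p = 0.000167).

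Most of the chaperones that fold actin and the enzymes that modify it were lower after induction. Of 17 tested genes, 12 were lower in induced than in uninduced knockdown cells, and 12 were lower and 1 higher in induced than in uninduced control cells (edgeR), against 30.1% and 30.9% of all tested genes lower, with medians of -1.21 and -1.13 against 0.101 and 0.03 over all tested genes. Pfdn6, a prefoldin subunit, averaged 30.2 CPM in induced and 104 CPM in uninduced knockdown cells (edgeR adjusted p = 1.44e-08). Setd3, the methyltransferase that modifies a histidine of actin, was the 1 gene that rose in control cells (0.41, edgeR adjusted p = 0.00254). Between siRNAs edgeR made 1 call, a gene higher in uninduced knockdown cells. That is 5.88% higher and 0 lower, against 15.4% and 17.1% of all tested genes. Without the libraries that stood apart 11 were higher there, against 22.8% of all. In induced knockdown cells edgeR called 0, against 3.73% of all tested genes higher and 5.77% lower. DESeq2 called 1 lower, limma-voom 0, and 2 were lower at an unadjusted p under 0.05. Without those libraries 1 was higher and 1 lower, against 6.16% and 10.2%. The 1 edgeR call was Naa80, which acetylates the actin N-terminus. Naa80 averaged 38.2 CPM in uninduced knockdown and 9.62 CPM in uninduced control cells (1.99 ± 0.19 SE, edgeR adjusted p = 3.58e-06). Its value is uncertain, since in GENCODE M21 the gene overlaps Hyal1 and Hyal3 on its own strand and Gm16343 on the other.

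Regulators of actin transcription through SRF and its partners showed 4 genes higher and 3 lower of 14 tested in uninduced knockdown cells, and 3 lower in induced knockdown cells (edgeR). In uninduced cells that is 28.6% higher and 21.4% lower, against 15.4% and 17.1% of all tested genes, so the lower share is near that of all genes. In induced cells it is 21.4% lower against 5.77%. Mrtfa, an SRF coactivator, averaged 40.7 CPM in uninduced knockdown and 82.0 CPM in uninduced control cells (log2 fold change -1.01, edgeR adjusted p = 0.000208), and Vgll3, a TEAD cofactor, 38.0 CPM and 17.9 CPM (1.09, edgeR adjusted p = 2.68e-05). In induced cells Abra, a muscle activator of SRF signalling, averaged 2.10 CPM in knockdown and 14.2 CPM in control cells (-2.76, edgeR adjusted p = 2.25e-05), and Fhl1 159 CPM and 416 CPM (-1.39, edgeR adjusted p = 6.99e-06). Of 16 actin-related proteins 7 were tested, and edgeR called 0 between siRNAs in either state. Over all tested genes 15.4% were higher and 17.1% lower in uninduced knockdown cells, and 3.73% and 5.77% in induced knockdown cells. In uninduced cells 1 had an unadjusted p under 0.05, DESeq2 called 1 and limma-voom 0. Without the libraries that stood apart 4 were higher in uninduced knockdown cells, against 22.8% of all tested genes. In induced cells 0 had an unadjusted p under 0.05 and DESeq2 and limma-voom called 0. Without those libraries 1 was lower there, against 10.2% of all tested genes.

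Markers of muscle and of other cell types differed between the groups as follows. The summed TPM of 10 skeletal muscle markers ran from 1454 to 1762 in induced knockdown libraries and from 3289 to 3966 in induced control libraries, and from 176 to 201 in uninduced knockdown and from 145 to 245 in uninduced control libraries. Of the 9 tested, 6 were lower in induced knockdown cells, or 66.7% against 5.77% of all tested genes. Among them were Ckm (log2 fold change -2.53) and Tnnt3 (-1.97, edgeR adjusted p = 1.72e-06 and 2.85e-06). Without both libraries that stood apart 8 were lower, against 10.2% of all tested genes. In uninduced knockdown cells 2 were lower, the early myogenic factor Myf5 (-1.75, edgeR adjusted p = 1.52e-06) and myogenin, Myog (-0.86, edgeR adjusted p = 0.00595). There 1 was higher, the fusion factor Mymk (3.03, edgeR adjusted p = 0.000225), at only 0.998 CPM against 0.116 CPM in control cells. These are 22.2% lower and 11.1% higher, against 17.1% and 15.4% of all tested genes. The summed skeletal markers overlapped between the siRNAs in uninduced cells. Pax7, the satellite cell marker, had at most 0.081 TPM in any library. Of 10 smooth muscle markers, the summed TPM ran from 186 to 232 in induced knockdown, 295 to 309 in induced control, 28.9 to 32.01 in uninduced knockdown and 11.1 to 26.1 in uninduced control libraries. Its defining members Myh11, Cnn1 and Myocd had at most 0.081, 0.618 and 0.115 TPM in any library, while Tagln reached 163 TPM. Of its 6 tested members 4 were higher in uninduced knockdown cells (3 by limma-voom), or 66.7% against 15.4% of all tested genes. Among them was Tagln (2.93 ± 0.48 SE, edgeR adjusted p = 0.000114). In induced knockdown cells 2 were lower, or 33.3% against 5.77% of all tested genes. Lmod1 is on this list as well as on the filament length list. The cardiac markers Myl7 and Hand2 were listed at 0 in every library, and the summed TPM of the 11 cardiac markers ran from 24.3 to 28.8 in induced knockdown, from 37.2 to 41.9 in induced control, from 20.7 to 26.2 in uninduced knockdown and from 26.9 to 45.9 in uninduced control libraries. Of its 6 tested members 2 were lower in induced knockdown cells, Myh6 and Myl2, or 33.3% against 5.77% of all tested genes. Myl2 averaged 0.0167 CPM there and 1.52 CPM in induced control cells. It passed the filter on low counts through induced control cells alone, which fixed its direction. In uninduced knockdown cells 1 was lower, Gata4, or 16.7%, near the 17.1% of all tested genes. Without both libraries that stood apart 2 were lower there, against 23.4% of all tested genes. The 9 fibroblast and pericyte markers summed to between 619 and 821 TPM in induced knockdown and between 967 and 1061 TPM in induced control libraries, against 34.4 to 38.7 TPM in uninduced knockdown and 33.0 to 56.8 TPM in uninduced control libraries. Of its 7 tested members 2 were lower in induced knockdown cells, Lum and Dcn, or 28.6% against 5.77% of all tested genes. Without both libraries that stood apart 4 were lower, against 10.2% of all tested genes. In uninduced knockdown cells Pdgfra and Rgs5 were higher and Cspg4 and Pdgfrb lower (edgeR), 28.6% of the list in each direction against 15.4% and 17.1% of all tested genes. Rgs5 averaged only 0.366 CPM there and 0.0362 CPM in uninduced control cells. Tcf21 was listed at 0 throughout. The part of other cell types in the actin values was not tested.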

How the data were processed

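Per the submitters' processing notes, fastp 1.0.1, STAR 2.7.11b and Salmon were used with the GRCm39 build; a Salmon version and annotation release are not named in the sources at hand. Estimated counts per gene, made by the authors, were deposited for every library. The deposited score column holds TPM by the authors, within 0.1% of values recomputed from their counts and effective lengths. The table had 78810 lines, of which 535 that repeated a gene ID were dropped, and 12 FPKM columns were not used. A spelling slip in the headers of 2 induced knockdown libraries, replicates 2 and 3, was read as the name it otherwise matches.

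Estimated counts were rounded and filtered with filterByExpr (minimum count 10, minimum total 15), leaving 15030 tested genes. A mean per group was fitted to all 12 libraries with edgeR 4.0.16 (R 4.3.3; TMM scaling, robust quasi-likelihood test, 8 residual degrees of freedom), and p-values were adjusted by Benjamini-Hochberg over all tested genes, with 0.05 as the threshold. The edgeR fit alone was tried on simulated counts with known changes, at a fixed dispersion and without a library that stands apart. The share tests, the other fits and the sequence searches were not tried that way. Alternatives used limma 3.58.1, DESeq2 1.42.0, other scalings and filters, a replicate block and leaving out libraries. Sequences and motifs were handled with Biopython 1.88. Genes named are the 6 actins, Zfp143, up to 2 of smallest p in each direction among called genes of 9 pathway lists, 3 nearest-pattern genes per actin and the markers; not every gene this rule selects is described. The members and lists were chosen with earlier results of these data known. Libraries of a group differed by more than sampling noise, so each counts as 1.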

Additional observations from a re-analysis of the deposited data

Results flagged for a closer look

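The siRNA's effect differed between induced and uninduced cells by a test of the difference itself for 3 actins and for the targeted gene. Acta1 had an interaction of -3.59 on the log2 scale (edgeR adjusted p = 0.00319), with -1.55 in induced and 2.04 in uninduced cells. For Acta2 it was -2.48 (edgeR adjusted p = 2.84e-06), with -0.76 in induced and 1.72 in uninduced cells. For Actg2 it was -1.51 (edgeR adjusted p = 0.0227), with 0.38 and 1.90. Zfp143 itself had 1.22 (edgeR adjusted p = 0.00358), with -0.18 in induced and -1.41 in uninduced cells, so the target's own reduction was not the same at the 2 harvest times.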

How the results depend on the processing

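Of 686 alternative values of member log2 fold changes 665 kept direction and side of the threshold, as did 249 of 270 for shares and sums, and 101 of 104 counts of called genes stayed within 1.5 times. Leaving out 1 library at a time, the counts ran from 3492 to 5780 for knockdown in uninduced cells (4886 with all), 901 to 2014 in induced cells (1427; 901 without induced control replicate 2), 8917 to 10180 and 9147 to 10780 for induction in control and knockdown cells, and 2506 to 4750 for the interaction (3375). Without both libraries that stood apart, an alternative chosen after seeing the data, 2525 genes were called in induced cells and 5755 for the interaction. The Actb log2 difference in uninduced cells ran from -0.063 (without uninduced control replicate 3) to 0.121 over these leave-outs, and was -0.072 without both. Averages of the siRNA difference in shares ran, leaving out a library, from -0.108 to 0.357 for Acta2, -0.531 to 0.124 for Actb and -1.87 to -1.68 points for Actc1, and from 0.172 to 0.433 for the cytoplasmic sum on the log2 scale. From counts not divided by length the Acta2 share average was -0.739 points and the cytoplasmic sum 0.31 (exact permutation test, adjusted p = 0.015). The muscle sum was -0.0123 without both libraries. Induction kept its direction for every share and sum in each leave-out. After group means were removed, same-numbered libraries of different groups correlated between -0.0963 and 0.306, and different-numbered ones between -0.279 and 0.249. The ranges overlap, and the numbers were not taken as pairs. A replicate block called 5115, 1501, 9750, 10079 and 3564 genes in uninduced cells, induced cells, induction in control and knockdown cells and the interaction. In the share tests the smallest unadjusted p that the block allows is 0.0312, and the smallest adjusted p seen was 0.0511 (exact permutation test within the block). The siRNA values of Actg2 (0.106) and Actg1 (13.1) had that adjusted p and did not pass there. The same held for the induction values of Acta1 (36.7), Actc1 (3.23), Acta2 (17.5), Actg2 (0.109), Actb (-35.9), Actg1 (-21.6) and the sums (2.69, 8.57 and 1.35). With scaling to library size alone the median of all genes moved to 0.208 and 0.351 for induction in control and knockdown cells, against 0.03 and 0.101, and the called genes that were higher made up 51.9% (39.2% with TMM) in induced knockdown, and 61% (51.8%) and 66.2% (54.4%) for induction. Depth limits Acta1, Actc1 and Actg2 in uninduced cells, where whole groups rest on at most 94 counts.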
